A study of Homo sapiens with 9 samples.

Results

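PARM1, a mucin-like membrane glycoprotein, and CAPN6, a calpain that lacks protease activity, were examined in WM983B melanoma cells as a pair of genes with high values after both MS-275 and corin and little difference between the inhibitors. They are 2 of the 14884 named genes on the arrays, and each is read by 1 probe, numbered 16967875 for PARM1 and 17113362 for CAPN6. The genes were chosen for this pattern on the same 9 arrays, so their values are given as a description and without a test. WM983B is an established human melanoma line. Cells were kept for 24 h with DMSO vehicle (0 µM inhibitor), with 2.5 µM MS-275 or with 2.5 µM corin, which the labels write as corin2, and each condition was run on 3 Affymetrix Human Gene 2.0 ST arrays. MS-275, also called entinostat, is a benzamide that inhibits class I histone deacetylases. Corin is a hybrid that joins the benzamide of MS-275 to a group directed at the histone demethylase LSD1. All groups share the line, the medium and the DMSO solvent, and each inhibitor was given at 1 dose and 1 time. The series text calls the triplicates biological, and the data come from 1 line.

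PARM1 (prostate androgen-regulated mucin-like protein) was first described in the rat prostate, and work on rat heart muscle cells placed it at the endoplasmic reticulum during stress. It has a serine- and threonine-rich extracellular part that carries sugars, like the membrane mucins, which form the outer glycoprotein coat of many cells. Calpains are cysteine proteases that calcium activates, with calpastatin (CAST) as their inhibitor. CAPN6 lacks the cysteine of the active site, binds and stabilizes microtubules, and is known mainly from placenta and embryonic muscle. Histone deacetylases remove acetyl groups from histone tails, and LSD1 removes methyl groups from a histone lysine. Both enzymes belong to the CoREST complex, which represses genes.

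The promoters of both genes are shown because the shared response of the genes can then be set beside the sequences at their starts. The windows are from RefSeq, build GRCh38.p14. They are 300 bases long and reach from upstream of each gene to just past its start site. PARM1 lies at chr4:74932866-74933165 on the plus strand and CAPN6 at chrX:111270434-111270733 on the minus strand. Capitals mark the GC box GGGCGG and the AP-1 motif TGANTCA, searched on both strands.
PARM1: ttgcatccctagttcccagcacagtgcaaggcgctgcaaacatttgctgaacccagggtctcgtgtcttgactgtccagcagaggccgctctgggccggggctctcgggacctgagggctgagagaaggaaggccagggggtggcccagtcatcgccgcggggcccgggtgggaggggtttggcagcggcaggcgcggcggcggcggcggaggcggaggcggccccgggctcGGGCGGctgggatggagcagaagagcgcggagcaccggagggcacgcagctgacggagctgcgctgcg
CAPN6: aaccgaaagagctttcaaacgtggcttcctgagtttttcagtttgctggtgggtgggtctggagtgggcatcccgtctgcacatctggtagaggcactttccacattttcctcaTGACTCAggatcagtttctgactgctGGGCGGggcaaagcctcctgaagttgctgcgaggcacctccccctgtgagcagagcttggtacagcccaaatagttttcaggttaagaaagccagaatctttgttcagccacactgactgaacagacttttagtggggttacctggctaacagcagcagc
The PARM1 window held 71.3% G and C and 28 CpG dinucleotides, and the CAPN6 window held 51.7% and 5. Over all 35116 promoters of this length the medians were 58.7% and 14, so PARM1 lay above and CAPN6 below both medians. Each window had 1 GC box, starting at base -18 from the start site in PARM1 and at base -110 in CAPN6, and 45.0% of all promoters have at least 1. The AP-1 motif, found in 7.71% of promoters, was present in CAPN6 at base -136 and not in PARM1. The short cyclic AMP response motif TGACG, left in lower case, was present in PARM1 at base 33 and not in CAPN6, and 24.6% of promoters have it. Neither window held the CCAAT box motif, which 34.6% of promoters have, or the TATA box TATAAA, which 11.5% have. The E-box CACGTG and the hormone receptor motif AGAACA, in 7.26% and 14.8% of promoters, were also not found in either. No match overlapped another. A match is a description of letters, and says nothing here of a bound factor.

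PARM1 was low with vehicle and high with both inhibitors. Its log2 expression values were 5.14, 4.96 and 4.87 on the vehicle arrays, with a mean of 4.99 ± 0.14 (SD, n = 3). With MS-275 the log2 values were 9.18, 9.25 and 9.16, with a mean of 9.20 ± 0.05 (SD, n = 3). With corin the log2 values were 9.43, 9.55 and 9.41, with a mean of 9.46 ± 0.07 (SD, n = 3). All 3 groups stood apart, with every corin array above every MS-275 array and every inhibitor array above every vehicle array. The log2 gap between the vehicle and MS-275 arrays was 4.02 and that between vehicle and corin was 4.27. The mean difference over vehicle was 4.21 log2 units with MS-275 (SE 0.09, 95% interval 4.01 to 4.41), or 18.5-fold. With corin it was 4.48 log2 units (95% interval 4.28 to 4.67), or 22.2-fold. Against the vehicle mean, single arrays were 18.1- to 19.2-fold higher with MS-275 and 21.4- to 23.6-fold higher with corin.

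CAPN6 was also low with vehicle and high with both inhibitors, with smaller differences over vehicle than PARM1. The vehicle log2 values were 4.43, 4.48 and 4.14, with a mean of 4.35 ± 0.18 (SD, n = 3). The MS-275 log2 values were 8.06, 8.14 and 8.12, with a mean of 8.11 ± 0.04 (SD, n = 3). The corin log2 values were 8.03, 7.67 and 7.80, with a mean of 7.84 ± 0.18 (SD, n = 3). Every inhibitor array again lay above every vehicle array, and corin replicate 1 lay just under the lowest MS-275 array. The log2 gap to vehicle was 3.59 for MS-275 and 3.19 for corin. The mean difference over vehicle was 3.76 log2 units with MS-275 (SE 0.12, 95% interval 3.50 to 4.01), or 13.5-fold. With corin it was 3.49 log2 units (95% interval 3.23 to 3.74), or 11.2-fold. Single arrays were 13.1- to 13.8-fold above the vehicle mean with MS-275 and 9.99- to 12.9-fold above it with corin, so the corin arrays of CAPN6 were more spread.

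**Figure D1:**
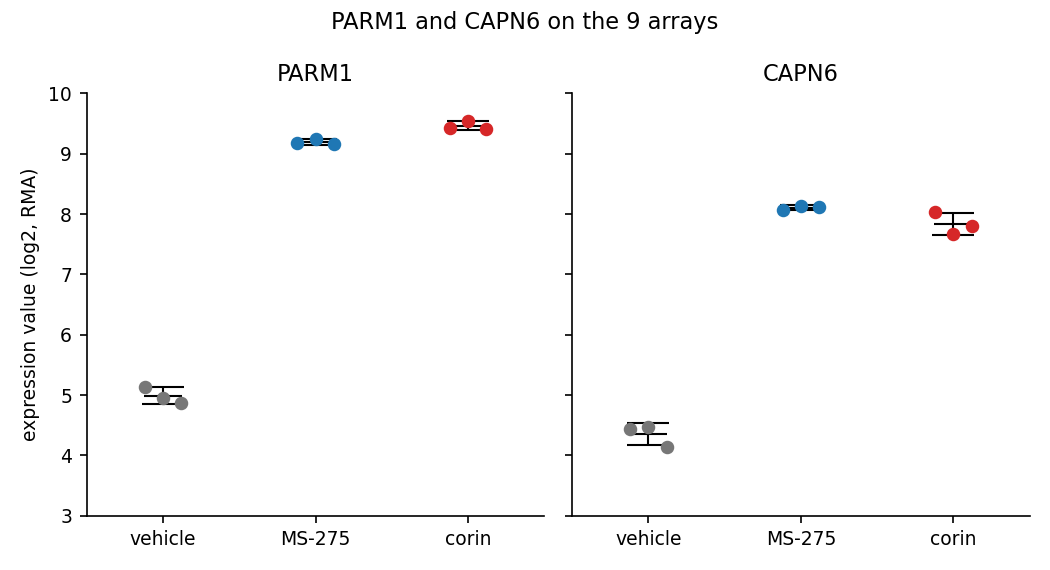
Log2 expression values of PARM1 and CAPN6 (vertical axis, RMA) on the vehicle, MS-275 and corin arrays. Points are arrays, and bars give the mean and SD of the 3 arrays of a group. The inhibitor arrays lie between 9.16 and 9.55 for PARM1 and between 7.67 and 8.14 for CAPN6, all above the vehicle arrays.

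The order of the inhibitor means differed between the genes. The genes were chosen on these values, so the intervals, here and over vehicle, are descriptive and are not tests. PARM1 was 0.26 log2 units higher with corin than with MS-275 (SE 0.09, 95% interval 0.06 to 0.46), a ratio of 1.20 with an interval of 1.05 to 1.38. CAPN6 differed by -0.27 log2 units (SE 0.12, 95% interval -0.53 to -0.02), a ratio of 0.828 with an interval of 0.694 to 0.987. The gap between the nearest arrays was 0.16 log2 units for PARM1 and 0.03 for CAPN6. Of all named genes, 57.2% had a smaller difference between the inhibitors than PARM1 and 58.4% a smaller one than CAPN6, so neither gene was among the least different. With the arrays quantile normalized the PARM1 difference was 0.18 log2 units. The bulk values cannot tell more RNA per cell from more cells that express the gene.

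Over all named genes, limma called 451 higher and 58 lower with MS-275 than with vehicle, or 3.03% and 0.39%. With corin over vehicle it called 1081 higher (7.26%) and 1133 lower (7.61%), and with corin over MS-275 it called 358 higher (2.41%) and 542 lower (3.64%). A call needed at least a 2-fold difference and a Benjamini-Hochberg adjusted p below 0.05. The median gene differed by -0.03, -0.04 and -0.03 log2 units in the 3 comparisons. By size of the increase over vehicle, PARM1 was at place 3 and CAPN6 at place 6 of 14884 genes with MS-275. With corin they were at places 16 and 46. Both comparisons use the same vehicle arrays.

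A group of 14 genes was at least 8-fold higher than vehicle with each inhibitor, a log2 difference of 3. In 8 of them the inhibitor means were within 1.5-fold of each other, and these were PARM1, CAPN6, SYN1 (synapsin, a synaptic vesicle protein), EEF1A2 (a translation elongation factor of neurons and muscle), DLX3 (a homeobox factor of skin appendages), TMEM47 (a cell junction protein), SEPTIN3 (a neuronal septin) and CDS1 (a phospholipid synthesis enzyme). CAPN6 and TMEM47 were the 2 of these 8 with a lower mean with corin than with MS-275. The other 6 of the 14, STC1, CD24, ANKRD1, SSTR2, MYCT1 and PAQR5, were all higher with corin. The limit of 1.5-fold fell between CDS1, at 0.49 log2 units between the inhibitors, and PAQR5 at 0.68. By the smaller of the differences over vehicle, PARM1 was at place 3 after STC1 and CD24, and CAPN6 was at place 6.

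**Figure D2:**
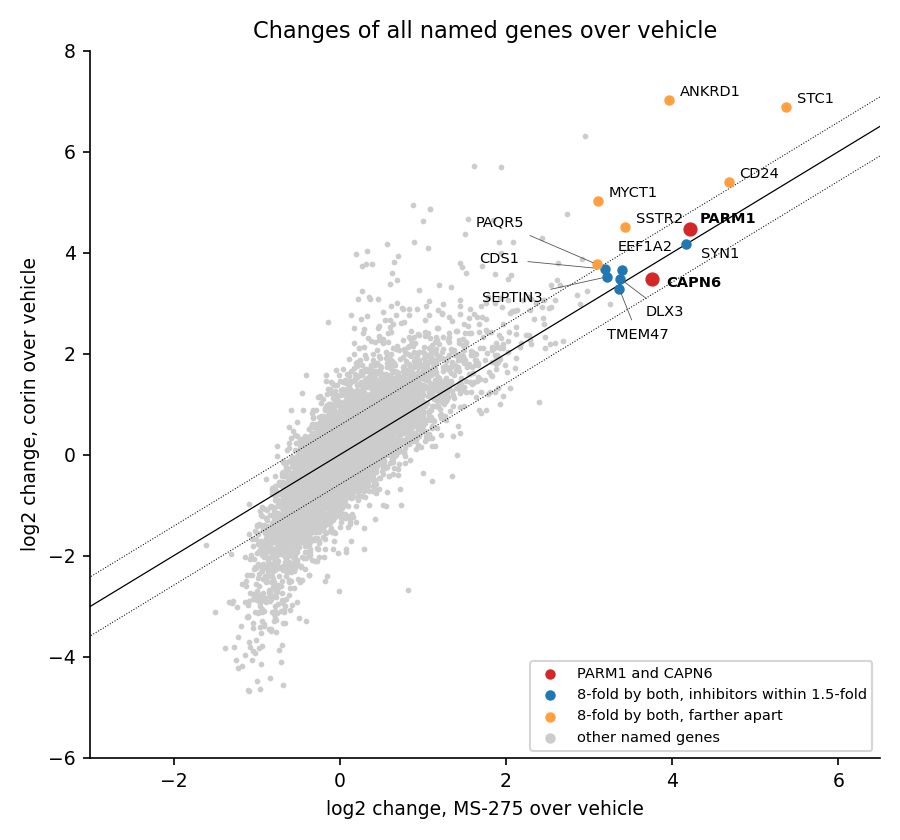
Log2 change of each named gene with MS-275 over vehicle (horizontal axis) and with corin over vehicle (vertical axis), from means of 3 arrays. The solid line marks equal changes and the dotted lines 1.5-fold between the inhibitors. PARM1 and CAPN6 (red) lie near the solid line among the 14 genes at 8-fold or more with both inhibitors.

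The genes nearest to each member were found by the distance between log2 changes over the 6 inhibitor arrays. SYN1 was nearest to PARM1, at a distance of 0.52 log2 units, with Pearson's r = 0.998 over all 9 arrays. Its log2 values were 4.99, 5.03 and 5.01 with vehicle, 9.20, 9.17 and 9.19 with MS-275, and 9.18, 9.25 and 9.15 with corin. The SYN1 inhibitor groups overlapped, whereas those of PARM1 did not. The next were SSTR2, a somatostatin receptor, at 1.36, CD24, a small mucin-like surface glycoprotein, at 1.81, CAPN6 at 1.92 and EEF1A2 at 2.01. These correlations rest on the step between vehicle and the inhibitors, which all of the genes share, and are a description over 9 arrays.

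EEF1A2 was nearest to CAPN6, at a distance of 0.74 log2 units (r = 0.987 over 9 arrays). Its log2 values were 4.88, 5.05 and 5.13 with vehicle, 8.44, 8.44 and 8.36 with MS-275, and 8.75, 8.70 and 8.58 with corin, so its corin arrays were above its MS-275 arrays, the reverse of CAPN6. DLX3 followed at 0.79, TMEM47 at 0.83, SEPTIN3 at 1.02 and CDS1 at 1.06. TMEM47 shared the order of CAPN6 in its means, but its arrays overlapped, with log2 values of 8.60, 8.83 and 8.67 with MS-275 and 8.61, 8.67 and 8.56 with corin. PARM1 was at place 14 from CAPN6. The 2 genes both rose strongly over vehicle but were not each other's closest gene.

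No other measured member of the calpain system was called. Of 16 listed genes, 11 were measured, and limma called 0 of them in any of the 3 comparisons. The background was 3.03% and 7.26% of genes higher over vehicle, 0.39% and 7.61% lower, and 2.41% higher and 3.64% lower between the inhibitors. With 11 genes, counts of 0 are not far from these shares. An unadjusted p under 0.05 at any fold marked 1 gene up and 3 down for MS-275 over vehicle, 2 up and 3 down for corin over vehicle, and 3 up and 2 down for corin over MS-275. The median log2 change was -0.13 with MS-275 and 0.06 with corin. CAST, the calpain inhibitor, had log2 values of 7.67, 7.69 and 7.69 with vehicle, 8.03, 8.08 and 8.13 with MS-275, and 8.51, 8.60 and 8.48 with corin. Its groups did not overlap, and it was higher by 0.40 log2 units with MS-275 (limma adjusted p = 0.0021) and by 0.85 with corin (adjusted p = 1.9e-06), which is below the fold of 2. Among calpains, CAPN15 was at -0.26 and -0.49 log2 units with MS-275 and corin, CAPN14 at -0.35 and -0.36, and CAPN5, a calpain without the calmodulin-like domain of the classical members, at 0.16 and 0.33.

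Among membrane mucins and mucin-like proteins, the family that PARM1 resembles, 14 of 28 listed genes were measured. Limma called 1 higher with MS-275, 2 higher with corin, and 0 between the inhibitors (4 higher and 0 lower at an unadjusted p under 0.05 and any fold). These counts of 1 and 2 genes stand beside 3.03% and 7.26% of all genes called higher. The 0 between the inhibitors stands beside 2.41% higher and 3.64% lower. None was called lower over vehicle, where an unadjusted p under 0.05 marked 2 with MS-275 and 1 with corin. Of all genes 0.39% and 7.61% were called lower over vehicle, and with 14 genes a count of 0 is near these shares. The median log2 change was 0.11 with MS-275 and 0.22 with corin. The gene called in both was PODXL (podocalyxin, a sialomucin of kidney podocytes), with log2 values of 5.17, 5.44 and 5.36 with vehicle, 7.93, 7.74 and 8.08 with MS-275, and 8.45, 8.67 and 8.06 with corin. It rose by 2.59 log2 units with MS-275 (limma adjusted p = 3.6e-07) and by 3.07 with corin (adjusted p = 1.2e-08), and its inhibitor groups overlapped. PODXL2, the related endoglycan, had log2 values of 7.49, 7.42 and 7.39 with vehicle, 8.26, 8.44 and 8.15 with MS-275, and 8.95, 8.77 and 8.87 with corin. It rose by 1.43 log2 units with corin (adjusted p = 1.5e-07) and was at 0.85 with MS-275 (adjusted p = 4.6e-05, below the fold). SELPLG, a ligand of selectins, was at 0.59 and 0.74 log2 units, and MUCL3 at 0.50 and 0.69. CD24, also mucin-like, was not on this list and is not in its counts. It was at 4.68 log2 units with MS-275 and 5.40 with corin, above PARM1 with both.

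**Figure D3:**
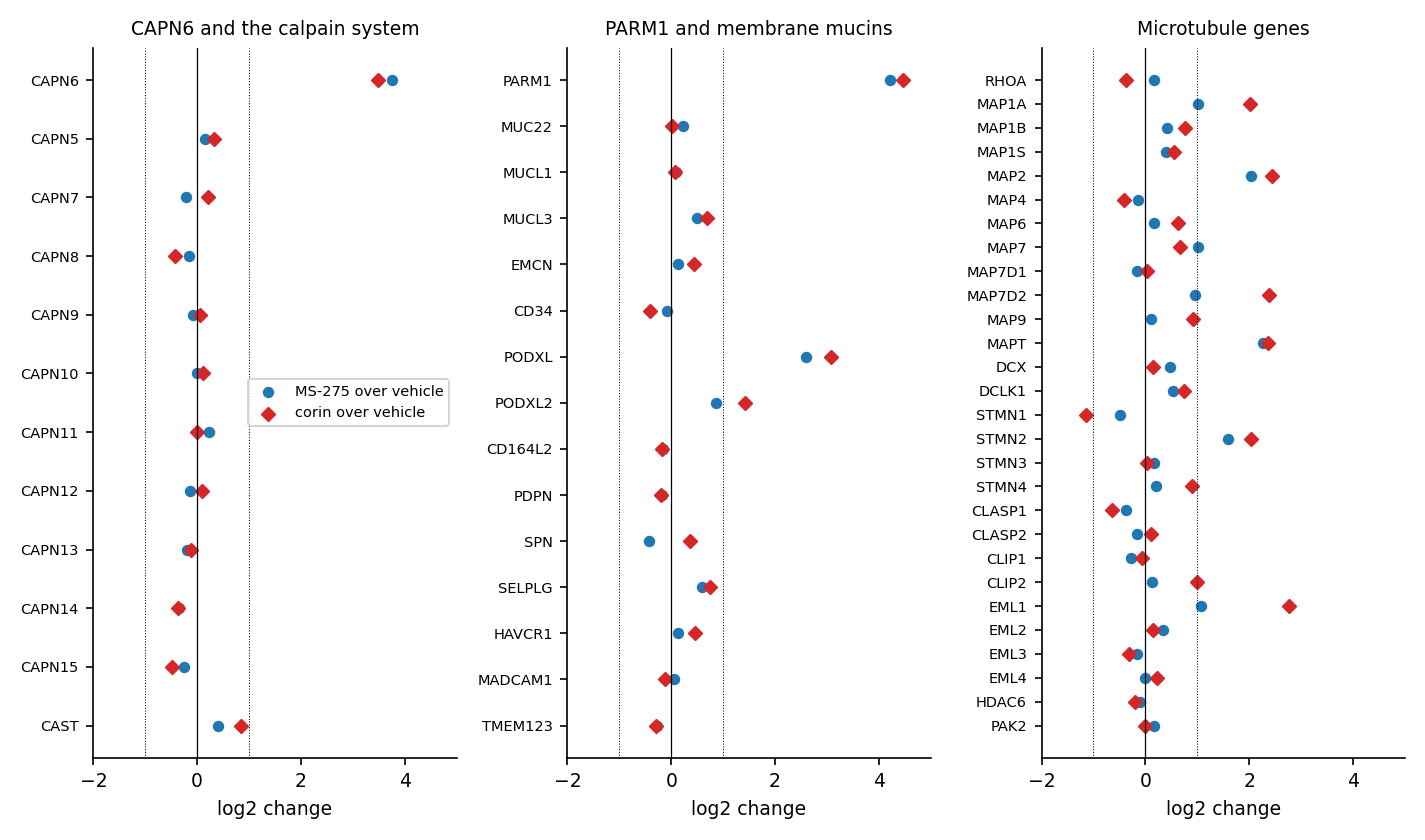
Log2 change over vehicle (horizontal axis) of CAPN6 and the calpain system, PARM1 and membrane mucins, and microtubule genes. Circles are MS-275 and diamonds corin, each from means of 3 arrays, and dotted lines mark 2-fold. CAPN6 lies at 3.76 and 3.49 while no other calpain passes a dotted line. PODXL, at 2.59 and 3.07, is the plotted mucin-like gene nearest to PARM1, and CD24, which was not on the list, is not plotted.

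Of the microtubule-associated genes and linked signalling genes, 28 of 32 listed were measured. Limma called 6 higher and 0 lower with MS-275 (3 lower at an unadjusted p under 0.05 and any fold). With corin it called 6 higher and 1 lower (5 lower at an unadjusted p under 0.05 and any fold). Between the inhibitors it called 3 higher with corin and 0 lower (6 lower at an unadjusted p under 0.05 and any fold). Of all genes 0.39% were called lower with MS-275 over vehicle, 7.61% lower with corin over vehicle, and 2.41% higher and 3.64% lower between the inhibitors. The shares higher over vehicle were above the 3.03% and 7.26% of all genes, and the median log2 changes were 0.17 with MS-275 and 0.39 with corin. The list was chosen with earlier results of these data known. The list also holds stathmins, which destabilize microtubules.

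MAPT (tau, which binds and stabilizes axonal microtubules) was the called member that differed least between the inhibitors. Its log2 values were 5.57, 5.77 and 5.48 with vehicle, 7.87, 7.94 and 7.84 with MS-275, and 8.01, 7.99 and 7.93 with corin. It rose by 2.28 log2 units with MS-275 (limma adjusted p = 1.7e-08) and by 2.37 with corin (adjusted p = 1.6e-09), and differed by 0.09 between them (95% interval -0.11 to 0.29, adjusted p = 0.48). MAP2, a dendritic microtubule protein, rose by 2.04 and 2.43 log2 units, with 7.91, 7.81 and 7.94 on the MS-275 arrays and 8.24, 8.38 and 8.22 on the corin arrays. STMN2, a neuronal stathmin, rose by 1.60 and 2.04.

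EML1, a microtubule-binding protein, rose by 1.07 log2 units with MS-275 and 2.78 with corin, and was 1.70 higher with corin than with MS-275 (limma adjusted p = 6.5e-07). Its call with MS-275 was lost without vehicle replicate 1, at 0.99 log2 units. MAP7D2, a kinesin cofactor, was at 0.96 with MS-275, below the fold, and rose by 2.38 with corin, 1.42 above MS-275 (adjusted p = 1.3e-06). MAP1A rose by 1.01 log2 units with MS-275, by 2.02 with corin and by 1.01 from MS-275 to corin. Its calls with MS-275 and between the inhibitors each fell just short of the fold in 4 alternatives, at 0.93 to 1.00 and 0.91 to 0.99 log2 units. MAP7 rose by 1.02 log2 units with MS-275, which was 0.97 when quantile normalized, without vehicle replicate 1 or without MS-275 replicate 1, and was at 0.66 with corin. STMN1, a stathmin of dividing cells, fell by 1.15 log2 units with corin (adjusted p = 3.1e-06) and was at -0.49 with MS-275.

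The genes on either side of each member along the chromosome were also compared, taken from the gene order of the RefSeq table as the 5 nearest named genes on each side. Genes without a named probe here were passed over, so a named neighbour need not be the adjacent gene. Around PARM1 limma called 1 of 10 higher with each inhibitor and 0 lower, and 0 were below an unadjusted p of 0.05 with a lower value. Of all genes 3.03% and 7.26% were called higher, so 1 of 10 is close to the corin share. The shares called lower were 0.39% and 7.61%, and with 10 genes a count of 0 is near them. Between the inhibitors 0 were called, and 2 were higher and 1 lower at an unadjusted p under 0.05 and any fold. That 0 stands beside 2.41% of all genes higher and 3.64% lower. The median log2 changes were 0.21 with MS-275 and 0.26 with corin. The called gene was CDKL2, a kinase of the cyclin-dependent-like family, with log2 values of 4.74, 4.65 and 4.59 with vehicle, 5.69, 5.72 and 5.85 with MS-275, and 6.10, 6.10 and 5.50 with corin. It rose by 1.09 log2 units with MS-275 (limma adjusted p = 1.7e-04) and by 1.24 with corin (adjusted p = 1.9e-05), and its inhibitor groups overlapped as those of PARM1 did not. Growth factor genes among these named neighbours were at 0.31 and 0.80 log2 units for EREG, 0.48 and -0.14 for BTC, and -0.16 and -0.07 for EPGN.

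Around CAPN6 limma called 0 of 10 with MS-275, where an unadjusted p under 0.05 marked 4 higher and 1 lower at any fold. With corin it called 1 lower and 0 higher (2 higher at an unadjusted p under 0.05), and with corin over MS-275 it called 2 lower and 0 higher (1 higher at an unadjusted p under 0.05). Of all genes 7.61% and 3.64% were called lower in these comparisons, and 1 of 10 is close to the first share. With MS-275 over vehicle 3.03% of all genes were called higher and 0.39% lower. The shares called higher were 7.26% with corin over vehicle and 2.41% with corin over MS-275. The median log2 changes were 0.21, -0.11 and -0.26. TMEM164 had log2 values of 7.82, 7.90 and 8.17 with vehicle, 7.84, 7.86 and 7.91 with MS-275, and 6.97, 6.93 and 6.55 with corin. It fell by 1.15 log2 units from vehicle to corin (limma adjusted p = 1.0e-05) and by 1.06 from MS-275 to corin (adjusted p = 4.5e-05). AMOT (angiomotin, a cell junction and YAP-binding protein) had log2 values of 6.20, 5.99 and 6.15 with vehicle, 6.46, 6.33 and 6.37 with MS-275, and 5.39, 5.67 and 4.86 with corin. It fell by 1.08 log2 units from MS-275 to corin (adjusted p = 2.8e-04). Without corin replicate 3 these differences between the inhibitors were -0.92 for TMEM164 and -0.86 for AMOT, below the fold. DCX, the doublecortin gene beside CAPN6 and itself a microtubule-associated protein of migrating neurons, was at 0.47 and 0.15 log2 units over vehicle.

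**Figure D4:**
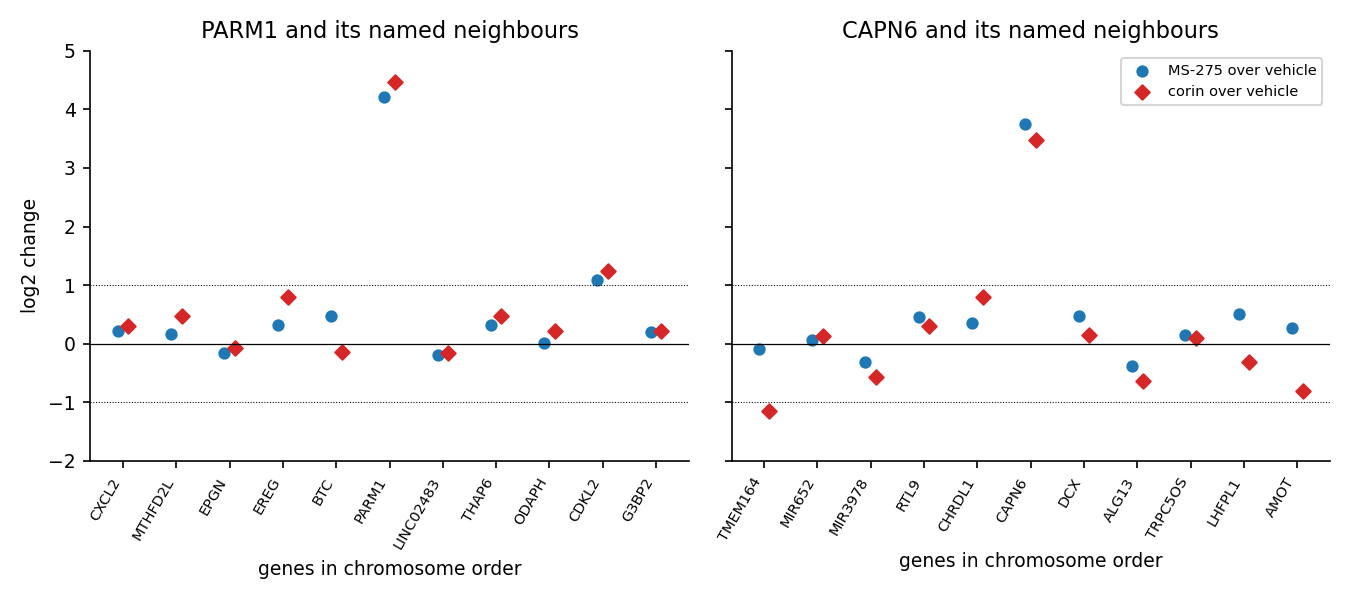
Log2 change over vehicle (vertical axis) of PARM1, CAPN6 and the 5 named genes on each side, in chromosome order. Circles are MS-275 and diamonds corin, from means of 3 arrays, and dotted lines mark 2-fold. CDKL2 at 1.09 and 1.24 is the neighbour above the upper dotted line, and TMEM164 at -1.15 with corin is the one below the lower line.

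PARM1 was named for the prostate and linked to stress of the endoplasmic reticulum, and both settings were followed by lists. Of 12 listed stress genes 8 were measured, and limma called 0 with MS-275 (4 higher and 2 lower at an unadjusted p under 0.05 and any fold) and 3 higher with corin. With corin none was called lower, and 1 was lower at an unadjusted p under 0.05. Corin over MS-275 gave 2 called higher and 0 lower, with 0 lower at an unadjusted p under 0.05. The shares of all genes called higher were 3.03%, 7.26% and 2.41%, and with 8 genes a count of 0 for MS-275 is near its share. Those called lower were 0.39%, 7.61% and 3.64%, and the counts of 0 lower are near these shares. The median log2 changes over vehicle were 0.21 and 0.62. DDIT3 (CHOP, a stress transcription factor) had log2 values of 4.62, 5.03 and 4.70 with vehicle, 5.25, 5.21 and 5.07 with MS-275, and 8.73, 8.75 and 8.22 with corin, and was 3.39 log2 units higher with corin than with MS-275 (limma adjusted p = 1.9e-08). ERN1, the sensor IRE1, was 1.76 log2 units higher (adjusted p = 4.3e-08), and EIF2AK3, the sensor PERK, rose by 1.39 over vehicle with corin. The other stress genes differed less between the inhibitors, with log2 differences of 0.80 for ATF4, 0.21 for XBP1, 0.09 for CASP12, 0.08 for CREB3L1 and 0.07 for ATF6. Thus 4 of the 8 differed by less than the 0.26 of PARM1, which is near the 57.2% of all named genes that did. Over vehicle XBP1 was lower with both inhibitors, by -0.63 log2 units with MS-275 (limma adjusted p = 1.6e-04) and -0.42 with corin (adjusted p = 0.0012).

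Of 15 listed androgen-responsive and prostate genes, 9 were measured. Limma called 2 higher with MS-275, 3 higher with corin and 0 between the inhibitors, where 3 were higher and 2 lower at an unadjusted p under 0.05 and any fold. None was called lower over vehicle, with 0 lower with MS-275 and 1 lower with corin at an unadjusted p under 0.05. Of all genes 3.03% and 7.26% were called higher over vehicle, 0.39% and 7.61% lower, and 2.41% higher and 3.64% lower between the inhibitors. With 9 genes, counts of 0 lower are near these shares. The median log2 changes were 0.28 with MS-275 and 0.16 with corin. TMEFF2, a membrane protein of prostate and brain, had log2 values of 3.38, 3.41 and 3.45 with vehicle, 5.78, 5.59 and 5.98 with MS-275, and 6.43, 6.54 and 6.30 with corin. It rose by 2.37 log2 units with MS-275 (limma adjusted p = 4.6e-08) and by 3.01 with corin (adjusted p = 9.4e-10). KLK4, a prostate kallikrein, had log2 values of 4.55, 4.63 and 4.66 with vehicle, 6.05, 6.21 and 6.07 with MS-275, and 6.43, 7.03 and 6.58 with corin. It rose with both (adjusted p = 9.9e-06 and 1.2e-07), and NDRG1, a stress-responsive gene, rose by 1.76 with corin and was at 0.85 with MS-275. KLK2 and KLK3, the kallikreins that define prostate epithelium, were at 0.06 and 0.16 and at 0.22 and 0.00 log2 units with MS-275 and corin, with limma adjusted p from 0.13 to 0.99.

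Markers of melanocytes, of prostate, muscle and trophoblast, and of other cell types were read beside these results, and log2 array values have no 0. All 7 measured melanocyte and melanoma markers were above the median gene with vehicle. Their summed log2 level was 62.7 to 63.2 with vehicle, 60.2 to 61.4 with MS-275 and 48.8 to 49.4 with corin. The sum of the 2 prostate markers was 9.36 to 9.73, 9.71 to 9.88 and 9.54 to 9.83, and that of the 4 muscle markers was 18.8 to 20.1, 18.9 to 19.7 and 18.7 to 19.2. The sum of the 3 trophoblast markers was 10.5 to 10.8, 10.6 to 11.2 and 12.1 to 12.6. The prostate and trophoblast markers were all below the median gene with vehicle. Above it were 1 of 4 muscle, 2 of 5 epithelial, 1 of 2 fibroblast and 1 of 3 immune markers. The sum of 5 epithelial markers was 24.7 to 25.1, 27.0 to 27.2 and 28.3 to 28.7. Within it EPCAM was at 1.06 log2 units over vehicle with MS-275 and 2.40 with corin, while the 4 keratins were at 0.06 to 0.77 and 0.18 to 0.43. That of 2 fibroblast markers was 12.36 to 12.68, 13.67 to 14.03 and 12.77 to 12.86, and that of 3 immune markers was 19.6 to 19.8, 20.3 to 20.9 and 19.5 to 19.8. The part of these shifts in the PARM1 and CAPN6 values was not tested.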

How the data were processed

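Each group had 3 Affymetrix Human Gene 2.0 ST arrays, hybridised with RNA of WM983B cells. RMA values normalized in Partek were deposited by the authors on the log2 scale, with 53617 probes. The submitters' notes name the build hg19, and promoter coordinates are of GRCh38.p14. No further normalization or filter was applied. A probe table gave 16098 probes with 1 symbol, 0 with several and 37519 unnamed here, which stand for 14884 genes. The brightest probe stands for each of the 779 genes with several. Array medians were 4.05 to 4.12. Within groups the median SD over genes, in log2 units, was 0.104 (vehicle), 0.103 (MS-275) and 0.135 (corin). The number of arrays limits precision.

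Comparisons used limma 3.58.1 under R 4.3.3 (lmFit and eBayes, all 9 arrays, Benjamini-Hochberg adjustment over all genes). A call required a 2-fold difference with an adjusted p below 0.05. The fit was tested on simulated data. The members and lists were chosen with earlier results of these data known. PARM1 and CAPN6 are left out of list counts. Named genes were the members, the 5 nearest genes of each, up to 4 called members per list, the flanking genes, and genes at 8-fold or more with both inhibitors, besides further list members given as values and named after they were seen. For all 28 list counts of 0, the methods' one-way model with an unadjusted p and the same fold also gave 0. Both models give the same fold differences, so a gene under 2-fold could be called by neither. Some listed genes are not reported here. The alternatives were a replicate block, fits with only the groups compared, no fold threshold, the one-way model, trend and robust eBayes, quantile normalization, median centring, genes at or above the median signal, the mean of all probes, and each array left out. Figures used matplotlib 3.10.9 in Python 3.11.15.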

Additional observations from a re-analysis of the deposited data

How the results depend on the processing

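PARM1 and CAPN6 kept their direction in all 3 comparisons under the 13 alternatives run for them. Not all of these could move the values. Each gene has 1 probe and the groups are of equal size, so the probe mean and the replicate block change nothing. Leaving out an array outside a comparison changes nothing in it either. The genes were chosen by these values, so the ranges are a description. The log2 difference of PARM1 ranged from 4.15 to 4.29 with MS-275 over vehicle, from 4.39 to 4.55 with corin over vehicle and from 0.18 to 0.29 with corin over MS-275, the lowest of the last being 0.18 under quantile normalization. That of CAPN6 ranged from 3.65 to 3.82, 3.38 to 3.57 and -0.37 to -0.19. Without a fold threshold, limma called 2108 genes higher and 2293 lower with MS-275, 3477 and 3989 with corin, and 2592 and 3090 with corin over MS-275. The called members then numbered 6 in the calpain system against 0, 8 mucins against 2, 23 microtubule genes against 8, 6 stress genes against 3, 5 prostate genes against 3, 7 PARM1 neighbours against 1 and 8 CAPN6 neighbours against 2. With only genes at or above the median signal, fewer genes were tested, and 235 were called higher with corin over MS-275 and 5 microtubule genes in all. Leaving out 1 array gave 1 to 2 called CAPN6 neighbours, the 1 being without corin replicate 3. Of 34 calls of list members, 6 were lost in at least 1 alternative that tested the gene, and 8 of the 34 were of genes below the median signal, which were not tested where only brighter genes were kept.

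Replicate numbers did not pair the arrays. Deviations from group means correlated at -0.06 to 0.02 between arrays of the same number and at -0.04 to 0.07 between others. A replicate block left the counts at 451 and 58, 1081 and 1133, and 358 and 542. With groups of equal size a block changes no fold, so these counts say little on pairing.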
